A study of Mus musculus with 5 samples.

Results

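Telomerase and the proteins that cap chromosome ends were followed through 10 of the 55573 genes of the mouse expression tables, chosen by symbol: Tert, Dkc1, Nop10, Nhp2, Gar1, Wrap53, Terf1, Terf2, Pot1a and Tinf2. They were read in RNA sequencing libraries of 3 Th-Cre:MYC tumours and of 2 normal pancreas samples from Wild Type littermate mice. The tumour mice were TH-Cre/CAG-STOPflox/flox-MYC animals, in which Cre, made where the tyrosine hydroxylase promoter is active, removes a stop in front of a MYC transgene. Normal pancreas was perfused with an RNase inhibitor before RNA extraction, and the labels do not say so of the tumours. The series title presents the mice as a neuroblastoma model, the design text places the tumours in the pancreas, and age and sex are not given in the labels. Tumour replicates 1 and 2 share a number in their titles, and no label says whether the samples of a group come from separate animals.

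Telomerase lengthens chromosome ends by copying a short template in its RNA, Terc, with the reverse transcriptase Tert. The H/ACA proteins dyskerin (Dkc1), Nop10, Nhp2 and Gar1 hold that RNA and also the guide RNAs that direct pseudouridine into ribosomal and spliceosomal RNA, and Wrap53 brings telomerase to Cajal bodies. Shelterin covers the repeats: Terf1 and Terf2 bind the double-stranded part, Pot1a the single-stranded end, and Tinf2 links them. In humans TERT transcript is scarce in most adult tissues and present in most tumours, and human TERT and DKC1 are textbook target genes of MYC.

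Library totals ran from 6611967 to 15074489 estimated counts in tumour and from 48848987 to 51669489 in normal pancreas. The 17 listed acinar genes took 0.00603% to 0.298% of the tumour counts and 51.3% to 51.8% of the normal counts, and all 17 were lower in tumour. All 11 neuroendocrine markers were higher, with a summed level of 22694.8, 9846 and 19799.8 CPM (counts relative to the scaled library size) in the tumours, against 24.7 and 28.2 CPM in normal pancreas. RNAs of the misc_RNA class took 22.0% to 25.3% of the tumour counts and at most 0.00116% of the normal counts, so the libraries also differed in the RNA classes they held. Scaling between libraries was by TMM, under which the 16810 genes tested had a median log2 fold change of 0.38, against 3.55 with total counts only. Every direction below is relative to that choice, and ratios inside a library, given beside them, do not depend on it.

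All 10 genes passed the filter on low counts, with 2 to 983 counts per library. Tert and Pot1a were higher in tumour, Nhp2 and Gar1 were lower, and 6 did not pass (edgeR's quasi-likelihood test, adjusted p under 0.05 over all genes). That is 4 of 10, where 67% of all genes tested were called in either direction, 39.2% as higher and 27.8% as lower. The median log2 fold change of the 10 was -0.26. In 7 of the 10 the tumour and normal libraries did not overlap in CPM, against 81% of all genes tested: 3 lay wholly above, against 46.8%, and 4 wholly below, against 34.2%. The calls turned with the scaling. With total counts only all 10 were called higher, where 93.3% of all genes were higher and 2.37% lower. All 10 were also called higher with total counts over protein-coding genes outside the acinar list, where 90.7% of all genes were higher and 3.14% lower. By limma on log2(TPM + 1) and on log2(TPM + 0.1), TPM being the transcript level corrected for length, 8 of the 10 were higher and 0 lower, where 64.6% and 66.7% of all genes were higher and 8.19% and 8.25% lower. With library sizes over protein-coding genes that each held under 0.1% of every library, a setting chosen after the data were seen, 3 of the 10 were higher (Tert, Dkc1 and Pot1a) and 0 lower, where 49.5% of all genes were higher and 20.2% lower.

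**Figure D1:**
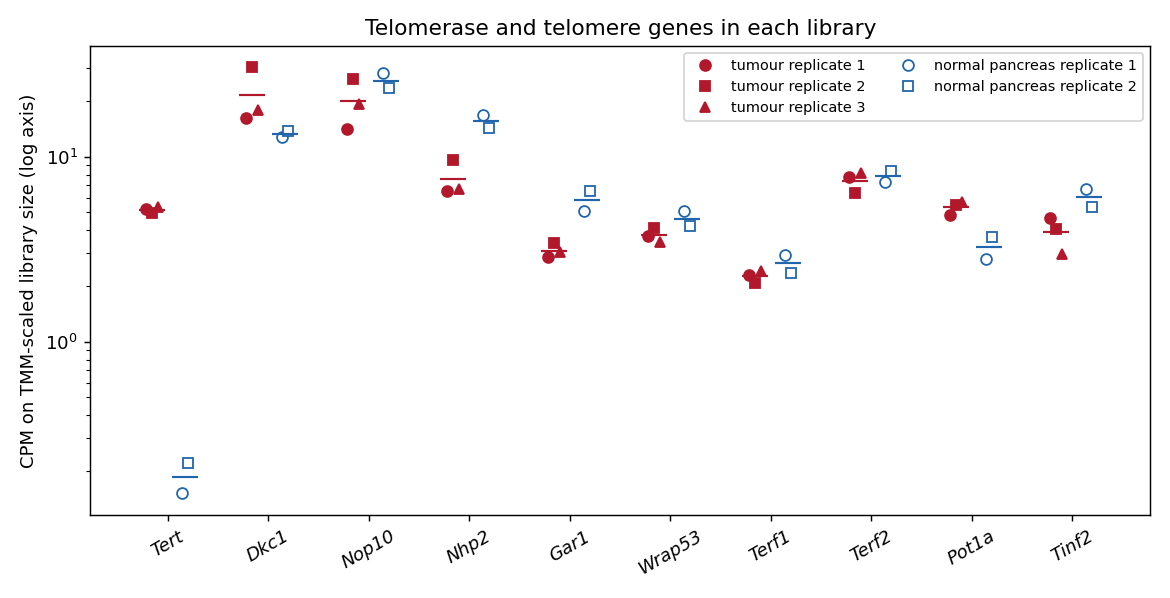
Level of each of the 10 genes in CPM on TMM-scaled library sizes (log axis) in the 3 tumours (filled red) and the 2 normal pancreas libraries (open blue), with lines at the group means. Tert lies near 5 CPM in every tumour and at or under 0.221 CPM in normal pancreas, while the other 9 genes differ between the groups by 2.03-fold or less.

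Tert (ENSMUSG00000021611.9, chromosome 13, 73626911 to 73649843, + strand) stood apart from the other 9. It had 196, 160 and 77 counts in the tumours and 2 and 3 counts in normal pancreas, although the normal libraries were the deeper ones. On the scaled level it had 5.21, 4.96 and 5.33 CPM in the tumours, against 0.151 and 0.221 CPM in normal pancreas. The tumours lay at 5.17 ± 0.192 CPM (SD, n = 3), far above 0.186 ± 0.0493 CPM (SD, n = 2) in normal pancreas. Counts this low carry counting error of their own, so these SDs do not measure how closely the samples agree. Tert rose by 4.75 in log2 (edgeR, SE 0.37, adjusted p = 0.000115). From the pooled counts, 433 in tumour and 5 in normal pancreas, the ratio was 27.5-fold with a 95% exact binomial interval of 11.7 to 85.2, which covers counting error only. Without normal pancreas replicate 1 it was 23.2-fold and without replicate 2 33.9-fold. The call as higher held in all 16 alternative settings, with log2 values from 1.25 by limma on log2(TPM + 1) to 7.84 with total counts only. In bulk tissue, more cells that use Tert and more Tert RNA per cell cannot be told apart.

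The position of Tert among the protein-coding genes of a library, which needs no scaling between libraries, also differed. By TPM Tert lay at percentile 37.3, 30.4 and 34.4 of the protein-coding genes tested in the tumours, against 7.81 and 18.7 in normal pancreas. It was thus a low to middling transcript in the tumours and among the lowest in normal pancreas. With 2 and 3 counts in normal pancreas, Tert passed the filter on low counts only through the tumours. Its low place in normal pancreas among the genes tested was partly set by that filter, and is no separate support for the rise of Tert. The TPM values were 1.89, 1.34 and 1.28 in the tumours and 0.01 and 0.09 in normal pancreas. The normal pair differ more in TPM than in counts because RSEM gave Tert an effective length of 3566 bases in normal replicate 1 and of 766 bases in replicate 2, from 2 and 3 counts. Over the 5 libraries, the 5 protein-coding genes whose mean-centred log2(CPM + 0.5) profiles lay nearest to that of Tert were Zfp26, Cryba2, Krt7, Fmnl2 and Nf1, at Euclidean distances of 0.0988 to 0.195. Their edgeR log2 fold changes ran from 2.94 for Nf1 to 9.28 for Cryba2, against 4.75 for Tert. The added 0.5 exceeds the CPM of Tert in normal pancreas, 0.151 and 0.221, so it weighs on which genes lie nearest.

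The bases just before the Tert start are shown because Tert had the largest fold change of the 10. They are RefSeq's 250 bases upstream of the start (GRCm38.p6, chr13:73626661-73626910, + strand), with the GC box letters CCGCCC in capitals.
Tert upstream: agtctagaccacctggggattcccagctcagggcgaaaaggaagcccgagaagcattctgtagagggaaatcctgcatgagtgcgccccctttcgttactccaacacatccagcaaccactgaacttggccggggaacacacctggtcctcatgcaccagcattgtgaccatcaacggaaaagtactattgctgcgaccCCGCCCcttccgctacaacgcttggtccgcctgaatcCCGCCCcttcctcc
The box, searched as CCGCCC and its reverse complement GGGCGG, occurs at 51 and 14 bases before the start. It was present in 32.7% of all 32851 RefSeq promoter windows of this length, and at least 2 copies in 16.2%. Of the 9 genes of the 10 that matched a RefSeq entry, 3 held it: Tert, Nhp2 and Pot1a. The E-box letters CACGTG, the core site of MYC with MAX and the same on both strands, were found in 1 of the 9, in a Wrap53 window 124 bases before the start, and in 6.02% of all windows. These are matches of letters only, and 1 of the GC box genes was higher by far, 1 slightly higher and, with TMM, 1 lower in tumour.

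The telomerase RNA was counted at 2 entries named Terc, between which RSEM split reads, so their sum is given. It had 49, 120 and 46 estimated counts in the tumours, and 0 and 1 in normal pancreas. On the scaled level this was 1.30, 3.72 and 3.19 CPM in the tumours against 0 and 0.0737 CPM in normal pancreas. The ratio of the pooled counts was 68.3, with a 95% exact binomial interval of 12.1 to 2711 that covers counting error only. Without normal pancreas replicate 1 it was 34.6, and without replicate 2 no normal count was left. Both entries passed as higher in edgeR (adjusted p = 0.0266 for the misc_RNA entry, at 0 in both normal libraries, and 0.00288 for the lncRNA entry). The misc_RNA entry lost its call when a normal library was left out (edgeR adjusted p = 0.0828 and 0.0842). The wider list of box H/ACA and Cajal body RNAs, Terc included, was also nearly absent from the normal libraries. Of 54 entries 30 were tested, of which 28 were higher and 0 lower, where 39.2% of all genes were higher and 27.8% lower. All 54 together had 5.06 and 5 estimated counts in the normal libraries, so entries passed the filter on low counts only through the tumours. A call as lower was thus closed off in advance, and these calls are no support for the Terc result. The 54 summed to 757, 1052 and 1014 CPM in the tumours, against 0.378 and 0.368 CPM in normal pancreas. In normal pancreas 48 of the 54 had 0 counts, and 10 had 0 counts in every tumour. The Cajal body RNA Scarna2 had 121.7, 129.3 and 125.5 CPM in the tumours, against 0.151 and 0.295 CPM in normal pancreas, and Snora74a and Scarna10, also higher, were at 0 in both normal libraries. The misc_RNA share given above moved with these RNAs, and its part in the Terc result was not tested. The start of the Terc transcript in GENCODE M21 (chromosome 3, - strand, bases 1 to 76 of 423) is shown for the template that Tert copies, in capitals.
Terc: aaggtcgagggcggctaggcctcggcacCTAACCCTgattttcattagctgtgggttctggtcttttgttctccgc

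The RNAs of the 4 H/ACA proteins did not move together. Dkc1 (dyskerin, the pseudouridine synthase; chromosome X, 75095854 to 75109777, + strand) had 16.1, 30.4 and 17.8 CPM in the tumours, against 12.7 and 13.7 CPM in normal pancreas. Every tumour lay above both normal libraries, and replicate 2 well above the other tumours. Dkc1 did not pass the test (edgeR log2 fold change 0.70, SE 0.30, adjusted p = 0.0748). It passed as higher without tumour replicate 1 (0.89, edgeR adjusted p = 0.0245), with upper-quartile scaling (0.83, adjusted p = 0.0438) and with tumour replicates 1 and 2 summed (0.64, adjusted p = 0.00983), and was 0.36 without tumour replicate 2. Nop10, the smallest protein of the core (chromosome 2, 112261926 to 112263269, + strand), had 14.1, 26.4 and 19.3 CPM in the tumours, against 28.2 and 23.4 CPM in normal pancreas. The groups overlapped through tumour replicate 2, and Nop10 did not pass (edgeR log2 fold change -0.37, SE 0.27, adjusted p = 0.252). It passed as lower without tumour replicate 2 (log2 -0.63, edgeR adjusted p = 0.0290) and with tumour replicates 1 and 2 summed (-0.39, adjusted p = 0.0367). Its direction was reversed, and it passed as higher, with total counts only (2.81, edgeR adjusted p = 0.000134) and by limma on log2(TPM + 1) (0.96, adjusted p = 0.0188).

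Nhp2, which joins the core beside Nop10 (chromosome 11, 51619735 to 51623714, + strand), had 6.51, 9.63 and 6.72 CPM in the tumours, against 16.8 and 14.3 CPM in normal pancreas. Every tumour lay below both normal libraries. Nhp2 fell by 1.02 in log2 (edgeR, SE 0.22, adjusted p = 0.00643), but its direction was reversed with total counts only (2.17) and by limma on log2(TPM + 1) (0.39, adjusted p = 0.176). The call was lost without normal pancreas replicate 1 (log2 -0.90, edgeR adjusted p = 0.0585). Gar1, the outer protein of the particle (chromosome 3, 129824912 to 129831396, - strand), had 2.87, 3.41 and 3.05 CPM in the tumours, against 5.07 and 6.55 CPM in normal pancreas. Gar1 fell by 0.90 in log2 (edgeR, SE 0.24, adjusted p = 0.0153) with TMM, and turned to 2.28 with total counts only and to 0.71 by limma on log2(TPM + 1) (adjusted p = 0.00862). The call was lost without normal pancreas replicate 2 (log2 -0.69, edgeR adjusted p = 0.134). With library sizes over the genes under 0.1% of every library neither gene passed (log2 -0.48 and -0.37, edgeR adjusted p = 0.0992 and 0.231). Nhp2 shares its last 44 bases with Rmnd5b on the other strand, and Dkc1 shares 45 with Mpp1. Strandedness of the counting is not given in the sources used here, so reads there cannot be assigned to a strand.

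**Figure D2:**
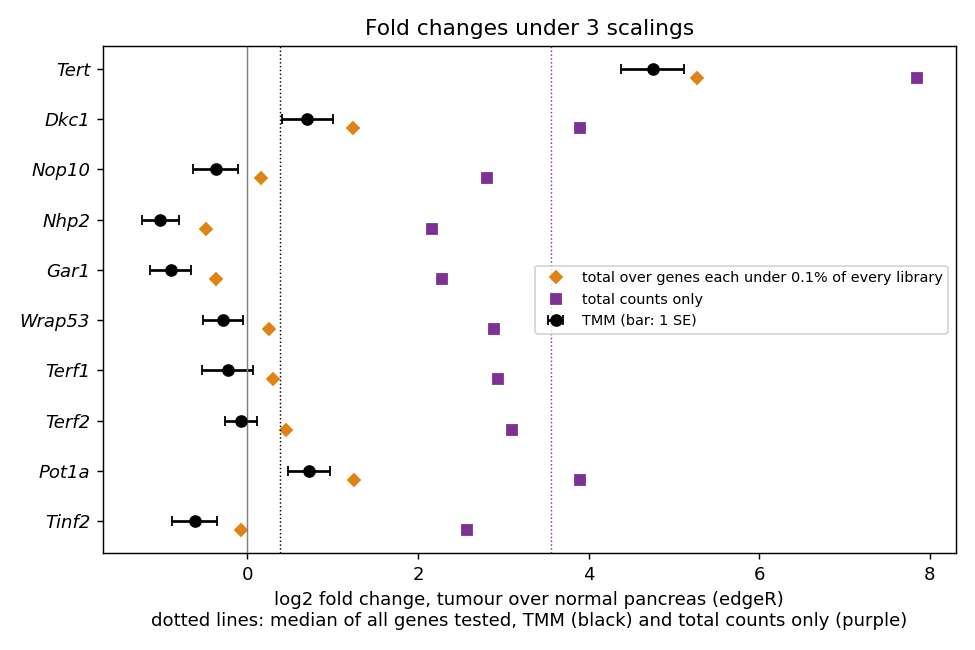
Log2 fold change, tumour over normal pancreas, of the 10 genes by edgeR with TMM (black, bars 1 SE), with library sizes over genes each under 0.1% of every library (orange) and with total counts only (purple), with dotted lines at the median of all genes. Tert is far to the right under each, while Nhp2 and Gar1 lie left of 0 with TMM and right of 0 with total counts only.

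Wrap53, the Cajal body factor of telomerase (chromosome 11, 69561758 to 69580255, - strand), had 3.75, 4.12 and 3.46 CPM in the tumours, against 5.07 and 4.20 CPM in normal pancreas. The groups nearly touched, with tumour replicate 2 just under normal pancreas replicate 2. Wrap53 did not pass (edgeR log2 fold change -0.29, SE 0.23, adjusted p = 0.304).

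Relative to Dkc1 RNA in the same library, Nop10, Nhp2, Gar1 and Wrap53 RNA stood lower in tumour than in normal pancreas. These ratios share Dkc1 as their denominator, so they are not separate shifts. The TPM of Nop10 was 1.45, 1.34 and 1.65 times that of Dkc1 in the tumours, against 4.97 and 3.13 times in normal pancreas. Nhp2 stood at 0.766, 0.579 and 0.706 times Dkc1 in the tumours and at 3.51 and 2.14 times in normal pancreas. Gar1 stood at 0.704, 0.387 and 0.597 times Dkc1 in the tumours and at 1.90 and 1.43 times in normal pancreas. Nhp2 and Gar1 were thus below Dkc1 in every tumour and above it in both normal libraries. For Wrap53 the ratio to Dkc1 was 0.229, 0.114 and 0.163 in the tumours and 0.495 and 0.355 in normal pancreas. The log2 ratios differed by -1.42 for Nop10, -2.01 for Nhp2, -1.60 for Gar1 and -1.37 for Wrap53, tumour minus normal pancreas, with no overlap between the groups. From counts without the length correction they were -1.05, -1.69, -1.53 and -0.94. The effective length of Dkc1 was 1420 to 1528 bases in tumour and 1744 to 2122 bases in normal pancreas, which enters the TPM ratios and not the count ratios.

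Tert moved the other way against Dkc1. Its TPM was 0.201, 0.0755 and 0.147 times that of Dkc1 in the tumours and 0.0109 and 0.0427 times in normal pancreas, a log2 difference of 2.60, or 3.91 from counts. Leaving out normal pancreas replicate 1 gave 1.61, and a pseudocount of 0.1 in place of 0.01 gave 1.04. For each of these 5 ratios to Dkc1 the two-sided exact permutation p was 0.1, the smallest that 3 against 2 libraries allow (10 splits), and 0.15 adjusted over the 9 ratios tested, so none could pass.

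**Figure D3:**
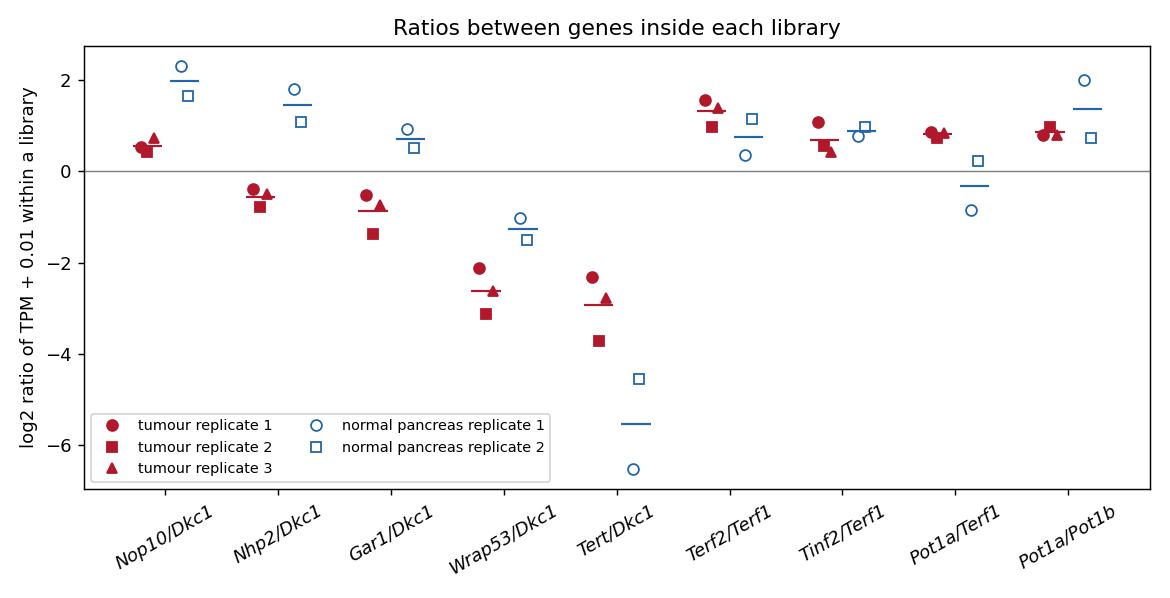
Log2 ratio of TPM + 0.01 between pairs of genes inside each library, for the 3 tumours (filled red) and the 2 normal pancreas libraries (open blue), with lines at the group means. Nhp2 and Gar1 over Dkc1 lie below 0 in every tumour and above 0 in both normal libraries, and the Terf2 and Tinf2 ratios to Terf1 overlap.

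Of the shelterin genes among the 10, only Pot1a passed the test. Terf1 (TRF1, chromosome 1, 15805646 to 15844052, + strand) had 2.29, 2.08 and 2.42 CPM in the tumours, against 2.95 and 2.36 CPM in normal pancreas, with overlap (edgeR log2 fold change -0.23, SE 0.30, adjusted p = 0.509). Terf2 (TRF2, chromosome 8, 107069400 to 107096547, - strand) had 7.73, 6.38 and 8.17 CPM in the tumours, against 7.33 and 8.32 CPM in normal pancreas. These ranges lay almost on top of each other (edgeR log2 fold change -0.08, SE 0.19, adjusted p = 0.723). Tinf2 (TIN2, chromosome 14, 55674689 to 55681820, - strand) had 4.65, 4.09 and 2.98 CPM in the tumours, against 6.73 and 5.38 CPM in normal pancreas. Every tumour was below both normal libraries, but the gene did not pass (edgeR log2 fold change -0.62, SE 0.27, adjusted p = 0.0788). Tinf2 overlaps Gmpr2 on the other strand over 4512 bases of its span, and Gmpr2 had 64 to 162 counts in tumour and 68 to 89 in normal pancreas.

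Pot1a, which covers the single-stranded end (chromosome 6, 25743737 to 25809246, - strand), had 4.86, 5.51 and 5.68 CPM in the tumours, against 2.80 and 3.68 CPM in normal pancreas. It rose by 0.72 in log2 (edgeR, SE 0.24, adjusted p = 0.0358), and stayed positive in every scaling tried. The call was narrow: it was lost without normal pancreas replicate 1 (log2 0.54, edgeR adjusted p = 0.194) or 2 (0.95, adjusted p = 0.0609) and without tumour replicate 2 (0.70, adjusted p = 0.0692) or 3 (0.71, adjusted p = 0.0785). Mice carry a close copy, Pot1b, that also limits trimming of the chromosome end. Pot1b had 2.74, 2.48 and 2.08 CPM in the tumours, against 0.529 and 1.40 CPM in normal pancreas, and passed as higher (edgeR log2 fold change 1.33, SE 0.48, adjusted p = 0.0459). Its call was lost without any 1 of the libraries other than normal pancreas replicate 2 (edgeR adjusted p between 0.0627 and 0.195), and with tumour replicates 1 and 2 summed (0.0538). The estimated counts of Pot1a, Pot1b and the other 9 genes were whole numbers in every library, without the fractions that RSEM gives where it splits reads between genes.

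With TMM, the remaining shelterin genes, Acd and Terf2ip, lay lower in every tumour than in both normal libraries. Acd (TPP1), the partner of Pot1 that recruits telomerase, had 5.18, 5.42 and 6.02 CPM in the tumours, against 14.0 and 13.6 CPM in normal pancreas. Acd fell by 1.32 in log2 (edgeR, SE 0.16, adjusted p = 0.000565) with TMM, but turned to 1.86 when only total counts were used, and missed the threshold by limma on log2(TPM + 1) (-0.05, adjusted p = 0.722). Terf2ip (RAP1), which sits on Terf2, had 7.73, 7.62 and 9.83 CPM in the tumours, against 11.1 and 12.0 CPM in normal pancreas, without passing (edgeR log2 fold change -0.47, SE 0.18, adjusted p = 0.0544). It passed as lower without tumour replicate 3 (edgeR adjusted p = 0.0367) and turned positive with total counts only.

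Against Terf1 inside each library, the TPM of Pot1a was 1.83, 1.65 and 1.81 times as high in the tumours and 0.556 and 1.17 times in normal pancreas. This log2 ratio was 1.13 higher in tumour with no overlap (exact permutation p = 0.1, adjusted 0.15), and 0.59 higher without normal pancreas replicate 1. Terf2 over Terf1 (log2 difference 0.56, exact permutation p = 0.3) and Tinf2 over Terf1 (-0.19, exact permutation p = 0.5) overlapped between the groups. Pot1a over Pot1b also overlapped (-0.51, exact permutation p = 0.4), and its difference turned to 0.12 without normal pancreas replicate 1.

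By TPM within a library, Nop10 was the highest of the 10 genes everywhere, at 13.7, 24.0 and 14.5 TPM in the tumours and 9.13 and 7.32 TPM in normal pancreas. Dkc1 was second in every tumour, at 9.42, 17.9 and 8.79 TPM, and at place 4 in both normal libraries, at 1.83 and 2.33 TPM, behind Nhp2 and Gar1. Its place among the protein-coding genes tested was percentile 83.4, 92.9 and 85.6 in the tumours and 66.2 and 72.0 in normal pancreas. Nhp2 had 7.21, 10.4 and 6.20 TPM in the tumours and 6.44 and 4.99 TPM in normal pancreas, and Gar1 had 6.63, 6.92 and 5.24 TPM against 3.49 and 3.34 TPM. The order of Nop10, Dkc1, Nhp2 and Gar1 was the same in all 3 tumours. Below them Terf2, Tinf2, Wrap53 and Pot1a followed in the tumours at 1.30 to 3.39 TPM, with Terf2 highest of these in every tumour and Tinf2 and Pot1a changing places around Wrap53. Tert was ninth in every tumour, just above Terf1 at 1.14, 1.29 and 0.97 TPM, and last in both normal libraries.

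Of 8 genes of the CST complex and of end processing, 5 were higher and none lower with TMM, where 39.2% of all genes were higher and 27.8% lower, with a median log2 fold change of 0.84 against 0.38 over all genes. Rtel1, a helicase that opens telomere loops, rose by 1.09 (SE 0.19, edgeR adjusted p = 0.00291). Ctc1 and Stn1, parts of the CST complex that ends telomerase action and fills in the other strand, rose by 0.87 (SE 0.20, edgeR adjusted p = 0.00825) and 1.59 (SE 0.43, edgeR adjusted p = 0.0159). Of the 8, only 2 were higher without normal pancreas replicate 1, where 26% of all genes were, 1 without replicate 2, where 26.2% were, and 3 without tumour replicate 3, where 37.2% were. Ctc1 was among those lost without either normal library (edgeR adjusted p = 0.0650 and 0.0504), as was Stn1 without replicate 2 (0.0947).

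Of 12 genes for telomerase assembly and RNA maturation, 4 were higher, 1 was lower and 7 did not pass, against the same 39.2% and 27.8% of all genes, with a median of 0.19. Tgs1, which trimethylates the cap of the telomerase RNA, rose by 2.06 (SE 0.22, edgeR adjusted p = 0.000379), and Nvl, an ATPase of ribosome assembly that binds telomerase, by 1.08 (SE 0.13, edgeR adjusted p = 0.000636). Tent4b, the polymerase that adds short tails to the telomerase RNA, fell by 0.82 with TMM (SE 0.17, edgeR adjusted p = 0.00523). It did not pass without normal pancreas replicate 2 (adjusted p = 0.0630), and was 2.37 with total counts only and 0.46 by limma on log2(TPM + 1). Without normal pancreas replicate 2 only 2 of the 12 were higher, where 26.2% of all genes were. The deadenylase gene Parn, which trims those tails, had 11.9, 11.3 and 11.4 CPM in the tumours, against 11.3 and 11.0 CPM in normal pancreas. Parn did not pass with TMM (edgeR log2 fold change 0.05, adjusted p = 0.770). Parn passed as higher with total counts only (3.23, edgeR adjusted p = 6.39e-06) and by limma on log2(TPM + 1) (1.22, adjusted p = 0.00334). It is named here after its values were seen.

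Of 4 genes of tankyrase and TRF1 turnover, 2 were higher, 1 was lower and 1 did not pass with TMM. Over all genes 39.2% were higher and 27.8% lower. The higher ones were both tankyrase genes, whose products release TRF1 from telomeres in human cells. Tnks2 rose by 1.52 (SE 0.17, edgeR adjusted p = 0.000447) and Tnks by 1.08 (SE 0.16, edgeR adjusted p = 0.00142). Rnf146, the ubiquitin ligase that reads the mark they make, fell by 0.75 with TMM (SE 0.14, edgeR adjusted p = 0.00344), and was 2.43 with total counts only and 0.51 by limma on log2(TPM + 1). Of 10 genes of telomeric chromatin and recombination tested, 4 were higher, close to the 39.2% of all genes, and 1 was lower, with a median of 0.58. Slx4, a nuclease scaffold, rose by 2.57 (SE 0.23, edgeR adjusted p = 0.000177), Rif1 by 2.14 (SE 0.15, edgeR adjusted p = 7.78e-05) and Atrx by 2.13 (SE 0.17, edgeR adjusted p = 0.000123). Atrx is the chromatin remodeller often lost in tumours that keep telomeres without telomerase, and it had 105, 94.8 and 108 CPM in the tumours, against 20.7 and 26.1 CPM in normal pancreas. The embryonic telomere genes Zscan4c, Zscan4d and Zscan4f had 0 counts in all 5 libraries.

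The box C/D particle, which guides methylation of ribosomal RNA as the H/ACA particle guides pseudouridine, had 3 of 8 genes higher and 2 lower, close to the 39.2% and 27.8% of all genes, with a median of 0.40. Its core proteins Nop56 and Nop58 rose by 1.62 (SE 0.21, edgeR adjusted p = 0.000848) and 1.42 (SE 0.17, edgeR adjusted p = 0.000553). Pih1d1, a part of the R2TP chaperone that assembles both kinds of particle, fell by 1.73 with TMM (SE 0.21, edgeR adjusted p = 0.000567), and was 1.46 with total counts only and 0.01 by limma on log2(TPM + 1).

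**Figure D4:**
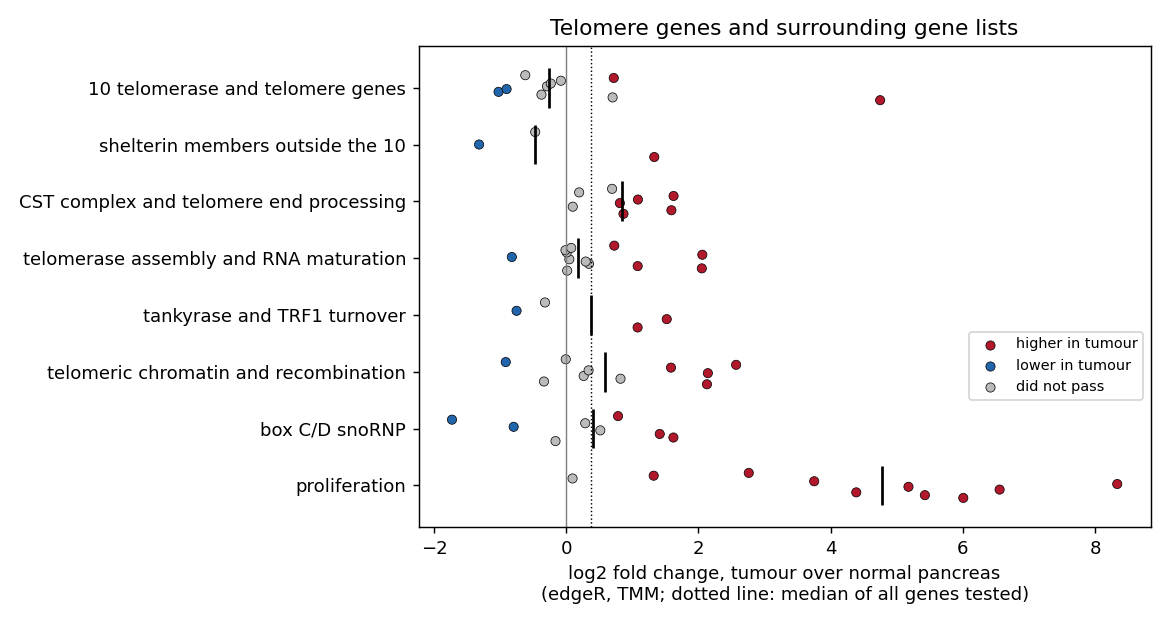
Log2 fold change, tumour over normal pancreas, of the 10 genes and of the genes tested in 7 surrounding lists (edgeR, TMM), coloured by the call, with a bar at each list's median and a dotted line at the median of all genes, 0.38. Tert lies among the proliferation genes, which reach 8.34, and the other 9 lie between -1.02 and 0.72.

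Most proliferation genes were higher in tumour, as Tert was. Of 10, 9 were higher and none lower, where 39.2% of all genes were higher, with a median of 4.78, and their summed level was 78.8, 120.6 and 123.9 CPM in the tumours, against 29.4 and 25.1 CPM in normal pancreas. Mki67 had 19.2, 31.0 and 30.3 CPM in the tumours, against 0.529 and 0.295 CPM in normal pancreas, and Top2a and Ccna2 rose by 5.43 and 5.18 in log2 (edgeR adjusted p = 0.00012 and 0.000281). Markers of other cells were summed in the same way, and their calls stand beside 39.2% of all genes higher and 27.8% lower. The 5 germ and stem cell markers summed to 1.54, 1.08 and 1.11 CPM in the tumours, against 0.151 and 0.0737 CPM in normal pancreas, without overlap. Of these 5, Lin28a passed as higher, Dazl was tested and did not pass, Ddx4 and Pou5f1 were too low to test, and Nanog had 0 counts in every library. The 8 immune markers summed to 31.5, 77.2 and 25.4 CPM in the tumours, against 36.5 and 21.1 CPM in normal pancreas, and of 6 tested Ptprc passed as higher and none as lower with TMM. The fibroblast sums overlapped, at 275 to 509 CPM in tumour and 238 to 305 CPM in normal pancreas, but with TMM 3 of 6 markers were higher (Col1a1, Col1a2 and Col3a1) and 2 lower (Dcn and Pdgfra). The endothelial sums did not overlap, at 102 to 127 CPM in tumour and 72.7 to 97.4 CPM in normal pancreas, and with TMM 2 of 5 markers were higher (Cdh5 and Egfl7) and 1 lower (Tek). The part of cell makeup and of proliferation in the Tert result was not tested.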

How the data were processed

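Libraries were made from total RNA of 3 tumours and 2 normal pancreas samples. The column headers carry a separate run of numbers for each tissue, and no source used here says what these stand for. Any difference in preparation between the tissues cannot be told apart from tissue. The submitters' processing notes name Trim Galore 0.60, STAR 2.7, RSEM 1.31 and the genome builds mm10 and GRCm38. No source used here gives their settings, the annotation release or the strand used in counting. Per gene, the authors deposited RSEM's estimated counts (also called expected counts), its TPM, and its effective length in bases, which is another kind of value. Series and per-library tables differed by 0 at most. The 92 spike-in rows, all at 0, were left out. The FPKM table was not used here.

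Estimated counts were rounded and tested with edgeR 4.0.16 (R 4.3.3): glmQLFTest, TMM, filterByExpr at default, Benjamini-Hochberg adjustment over 16810 genes, threshold 0.05. Fold changes are tumour over normal pancreas, and SE is the absolute log2 fold change over the square root of F. CPM uses TMM-scaled library sizes (factors 2.19 to 2.57 in tumour, 0.263 to 0.271 in normal pancreas). Within-library ratios use TPM + 0.01 and a two-sided exact permutation test. The fit was checked on simulated data with a fixed spread, in which 50 genes were changed at each step. It recovered 100% of the genes changed by 2 or -2 in log2. Of those changed by 1 it recovered 34%, and of those changed by -1 26%. Of the unchanged genes 0.0414% were called. The simulation ran 14684 genes, most of them unchanged, whereas 67% of all genes tested were called in the data. It also held no difference in RNA makeup between the groups. These shares therefore do not carry over to the data and do not bear on the choice of scaling. Alternatives used limma 3.58.1 and DESeq2 1.42.0. Gene places are from GENCODE M21 (GRCm38), which holds 55180 of the 55573 identifiers. Promoters are from RefSeq.

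The 10 genes and all lists were chosen with earlier results of these data known. The text names the 10, up to 3 genes per list with the smallest p, Terc and the 5 profiles nearest to Tert; Parn, the Zscan4 genes and single cell type markers are named after their values were seen. Every pair of replicates differed by more than sampling noise (chi-square per degree of freedom 28.4 to 64.7). No label says that the samples of a group came from separate animals, so p-values rest on a spread that may be technical.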

Additional observations from a re-analysis of the deposited data

How the results depend on the processing

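Over the 10 genes and 16 alternatives, 107 of 160 fold changes kept their direction and their side of the threshold, 35 changed direction, 8 lost and 10 gained a call. Tert kept both in all 16. The number of the 10 called higher, 2 with TMM, was 10 with total counts only and 10 with total counts over protein-coding genes outside the acinar list, and 8 by limma on log2(TPM + 1) and 8 on log2(TPM + 0.1). The number called lower, 2 with TMM, was 0 under each of these 4 and 0 with library sizes over genes each under 0.1% of every library, which was chosen after seeing the data. Leaving out 1 library gave 1 to 3 higher and 1 to 3 lower, where 26% to 39% of all genes were higher and 19.3% to 28.6% lower. Over all genes the median log2 value also moved, and was 3.55 with total counts only, 3.11 outside the acinar list, 0.76 with the genes under 0.1%, and 0.86 and 1.40 by limma. In the order total counts, outside the acinar list, log2(TPM + 1) and log2(TPM + 0.1), the log2 values that turned positive were 2.81, 2.36, 0.96 and 1.03 for Nop10, 2.17, 1.71, 0.39 and 0.44 for Nhp2, and 2.28, 1.83, 0.71 and 0.85 for Gar1. They were 2.89, 2.43, 0.61 and 1.02 for Wrap53, 2.94, 2.48, 0.43 and 0.86 for Terf1, 3.10, 2.64, 0.95 and 1.44 for Terf2, and 2.57, 2.10, 0.46 and 0.73 for Tinf2. With the genes under 0.1%, 4 turned: Nop10 to 0.16, Wrap53 to 0.25, Terf1 to 0.30 and Terf2 to 0.45. Terf2, near 0, also turned with upper-quartile scaling (0.052) and ranged from -0.17 to 0.032 with 1 library left out. The cause of these changes of direction was not tested.

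Of the 9 within-library ratios 8 kept their direction under a pseudocount of 0.1, from counts and without each library. Pot1a over Pot1b ranged from -1.14 to 0.12 when 1 library was left out. No paired analysis was possible because no label ties a tumour to a normal pancreas, and the replicate numbers are only names. With 2 normal libraries and 2 and 3 Tert counts in them, the level of Tert in normal pancreas is known only to within counting error, and the exact test cannot go below 0.1.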
